A study of Mus musculus with 10 samples.

Results

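The genes described here are the protein-coding genes of mouse chromosomes 3 and 13 that averaged at least 8 CPM (read counts scaled to a common library size) over 10 RNA libraries. They were found by placing the Ensembl identifiers of the count table on GRCm38 with GENCODE M21. This gave 799 of the 26401 rows of the table, 467 on chromosome 3 and 332 on chromosome 13, and the same rule applied to the 19 autosomes and X gives 9522 genes. The closest calls at the minimum were Them4 at 8.21 CPM inside and S1pr1 at 7.99 CPM outside on chromosome 3, and Irx2 at 8.12 CPM inside and Ahrr at 7.85 CPM outside on chromosome 13. The 2 chromosomes were chosen by the median deviation of their genes in each clone of these same libraries, so the size of each clone's deviation is given as a description and is not tested.

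The libraries hold poly(A) RNA of immortalized mouse embryonic fibroblasts, connective tissue cells grown from embryos, and each comes from 1 cell population with its own clone number. All 10 populations carry the mitochondrial DNA mutation m.5024C>T, and all were grown without further treatment in high glucose DMEM with serum and uridine. In 5 populations the mutant share of mitochondrial genomes (heteroplasmy) is high, called here high 1 to high 5 (Clone_26, Clone_44, Clone_59, Clone_62 and Clone_83), and in 5 it is low, called low 1 to low 5 (Clone_12, Clone_33, Clone_48, Clone_101 and Clone_109). The sample sheet gives the strain name C57Bl/6N, names the populations of a group as biological replicates, and gives neither the mutant share of a clone nor how it was immortalized. A clone is a single cell population, so a value of 1 library describes that clone and carries no replicate error of its own.

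The level of an mRNA is set by the regulation of its own gene and also by how many copies of the gene the cell carries. Immortalized mouse fibroblasts often have chromosome numbers that differ from the normal set, and a gained or lost chromosome is known to move the mRNA of most of its genes by a small, similar ratio, while strongly regulated genes move on their own. Mouse autosomes have the centromere at one end, so chromosomes 3 and 13 each form a single arm. DNA copy number was not measured in these libraries, and its part in any value below was not tested.

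Library totals ran from 17318372 to 28208576 counts and 17408 to 18429 genes had a count in a library. The 12 fibroblast markers summed to 9799 to 19843 CPM in the high clones and 11616 to 13359 CPM in the low clones, with Col1a1, Vim and Fn1 high in every library. Lum, Postn and, in the high clones, Dcn were at or near 0, and Col1a2 went as low as 1.96 CPM in a high clone. Thy1 stood at 0 to 55.1 CPM in the high clones and at 0.324 CPM or less in the low clones. Pdgfra stood at 0.277 to 50.5 CPM in the high clones and 2.11 to 9.20 CPM in the low clones. Of the other cell types, the defining markers Ptprc (blood), Cdh5 (endothelium) and Myog (muscle) were at 0 in all 10. Their lists summed to 12.2 to 87.3 CPM for blood, carried by the macrophage-associated Cd68, to 1.33 CPM or less for endothelium and to 4.19 to 23.7 CPM for muscle, carried by Des, in the high clones. In the low clones the sums were 12.2 to 26.1, 1.26 or less and 2.05 to 4.93 CPM. The epithelial list summed to 114 to 530 CPM in the high clones and 451 to 675 CPM in the low clones. In it, Krt19 stood at 108.6 to 387 CPM in the high clones and 440 to 669 CPM in the low clones. By median, Krt8 (2.01 against 4.09 CPM), Cdh1 (0.242 against 2.28 CPM) and Epcam (0.0692 against 0.546 CPM) were also lower in the high clones. Only Krt18 went the other way, at 2.29 to 285 CPM in the high clones and 0.325 to 0.595 CPM in the low clones.

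As examples of genes that follow their chromosome or run against it, the promoter windows of the gene with the highest and the lowest likeness to its chromosome (r, defined further on) are printed, from 250 bases before to 50 bases after the start of the gene, 5′ to 3′ on the strand of the gene (RefSeq, GRCm38.p6). Capitals mark each CG, the dinucleotide that mammalian DNA methylation acts on and that reads the same on both strands. Ankrd13c, an ankyrin-repeat protein, lies at chr3:157946750-157947049 on the plus strand, and Arsj, a member of the arylsulfatase family, at chr3:126363602-126363901 on the plus strand. Trappc13, a subunit of the TRAPP complex that tethers transport vesicles, lies at chr13:104178417-104178716 on the minus strand, and Nfil3, a transcriptional repressor with a basic leucine zipper, at chr13:52980990-52981289 on the minus strand.
Ankrd13c: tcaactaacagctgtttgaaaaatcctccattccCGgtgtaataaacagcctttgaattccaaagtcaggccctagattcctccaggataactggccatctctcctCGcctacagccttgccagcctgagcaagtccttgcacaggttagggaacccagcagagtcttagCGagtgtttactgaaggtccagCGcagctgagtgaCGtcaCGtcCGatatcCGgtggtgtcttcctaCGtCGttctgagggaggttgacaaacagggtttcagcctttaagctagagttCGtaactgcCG
Arsj: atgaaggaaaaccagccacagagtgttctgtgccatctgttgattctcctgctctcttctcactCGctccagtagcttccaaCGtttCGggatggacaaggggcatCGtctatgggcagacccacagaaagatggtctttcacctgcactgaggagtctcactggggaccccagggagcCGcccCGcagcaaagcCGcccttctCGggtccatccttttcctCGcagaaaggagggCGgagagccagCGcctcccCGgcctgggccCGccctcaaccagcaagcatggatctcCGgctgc
Trappc13: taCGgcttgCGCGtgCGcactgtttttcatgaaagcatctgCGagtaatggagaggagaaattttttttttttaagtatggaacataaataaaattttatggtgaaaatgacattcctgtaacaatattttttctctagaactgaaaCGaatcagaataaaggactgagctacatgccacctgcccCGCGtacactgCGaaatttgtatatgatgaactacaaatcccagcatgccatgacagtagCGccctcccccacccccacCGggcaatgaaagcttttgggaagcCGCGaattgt
Nfil3: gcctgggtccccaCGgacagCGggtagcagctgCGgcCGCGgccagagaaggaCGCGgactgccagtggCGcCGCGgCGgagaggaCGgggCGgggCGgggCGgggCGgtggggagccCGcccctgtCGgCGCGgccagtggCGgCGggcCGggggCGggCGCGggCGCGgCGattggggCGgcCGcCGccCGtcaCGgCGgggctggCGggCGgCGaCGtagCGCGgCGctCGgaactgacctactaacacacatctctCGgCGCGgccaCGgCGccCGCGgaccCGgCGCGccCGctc
The windows of Ankrd13c, Arsj and Trappc13 held 12, 14 and 13 CG, a number that 40.1%, 36.9% and 38.5% of all 27026 windows in the table reach. The Nfil3 window held 54 CG, which 0.363% of all windows reach. Each window is that of a single gene and stands for no group. Of the 799 genes, 659 (82.5%) had a window. These had a median of 21 CG on chromosome 3 and 24 on chromosome 13, against 7 over all windows. The set of all windows was not limited to coding genes or by CPM, and genes of other chromosomes under the same rule were not counted. The difference is therefore not shown to be a trait of these chromosomes. For the genes that ran against their chromosome, the same count is void, because only 75.7% on chromosome 3 and 72.7% on chromosome 13 had a window.

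On chromosome 3, 3 clones stood off as a whole and all 3 have high heteroplasmy. A gene's deviation is its log2 CPM in a library minus its median over the 10 libraries, and a clone's deviation is the median of that over the genes of the chromosome. High 1 lay above its genes' medians by 0.40, while high 2 lay at -0.33 and high 4 at -0.35. High 3 and high 5 were at -0.03 and 0.09, and low 1 to low 5 at 0.02, -0.01, 0.14, 0.04 and 0.00. So the high clones spread to both sides and the low clones stayed close together.

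In high 1, 83.5% of the chromosome 3 genes lay above their median, against 42.3% of the genes of other chromosomes. In high 2, 81.6% lay below it, against 48.6% elsewhere, and in high 4, 87.2% lay below it, against 46.2% elsewhere. The quartiles of the genes were 0.11 and 0.74 in high 1, -0.62 and -0.08 in high 2, and -0.52 and -0.13 in high 4. Set side by side, high 1 was above high 4 for 90.4% of the chromosome 3 genes, with a median ratio of 1.72, and above it for 42.1% of the genes of other chromosomes. High 2 and high 4 were level with each other, at a median ratio of 1.00.

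Chromosome 13 showed 4 clones at or beyond 0.2 in size, and here a low clone was among them, close to the limit. High 1 was at -0.34, high 4 at 0.26 and high 5 at 0.32, and low 1 at -0.21. Low 1 came under the limit with upper-quartile scaling (-0.154), without high 4 (-0.169) and after subtraction of the median of the other chromosomes (-0.191). High 2 and high 3 were at -0.06 and 0.03, and low 2 to low 5 at 0.07, -0.15, -0.10 and 0.20, the last just under the limit before rounding. Low 5 and low 1 thus lay on opposite sides, as high 5 and high 1 did. The ratio between the farthest clones, high 5 over high 1, had a median of 1.63 over the 332 genes.

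The share of chromosome 13 genes on the side of the shift was 82.5% in high 1, 84.0% in high 4, 80.4% in high 5 and 76.8% in low 1. On other chromosomes the same sides held 57.7%, 53.8%, 56.3% and 54.9% of genes. High 1 was up on chromosome 3 and down on chromosome 13, and high 4 was the reverse. A working name for these chromosomes spoke of shifts in single clones, and the data go against that, since 3 clones on chromosome 3 and 4 on chromosome 13 passed the limit. By their range over the 10 libraries, 0.75 on chromosome 3 and 0.66 on chromosome 13, they ranked 3rd and 6th of 20 chromosomes, so neither stands alone.

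**Figure D1:**
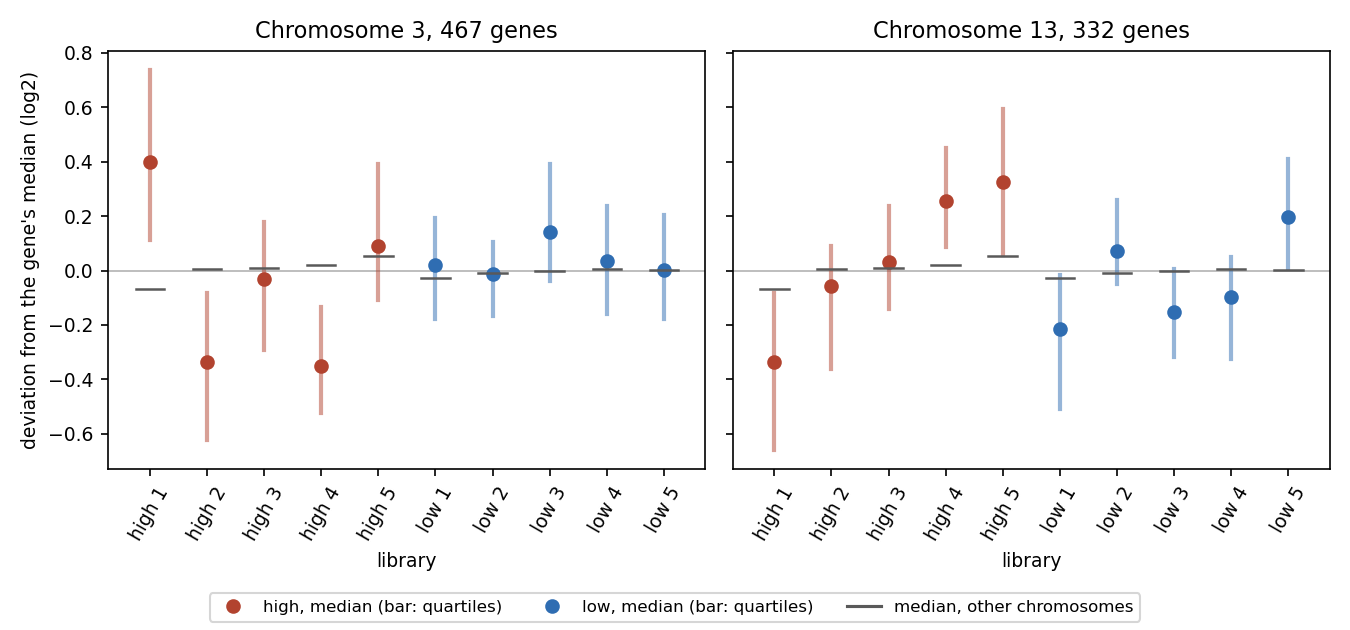
Median deviation (log2) of the 467 genes of chromosome 3 and the 332 of chromosome 13 in each library, high 1 to 5 in red and low 1 to 5 in blue, with bars for the quartiles over genes and a short grey line for the median of all other chromosomes. High 1 sits at 0.40 on chromosome 3 and -0.34 on chromosome 13, and high 4 at -0.35 and 0.26.

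**Figure D2:**
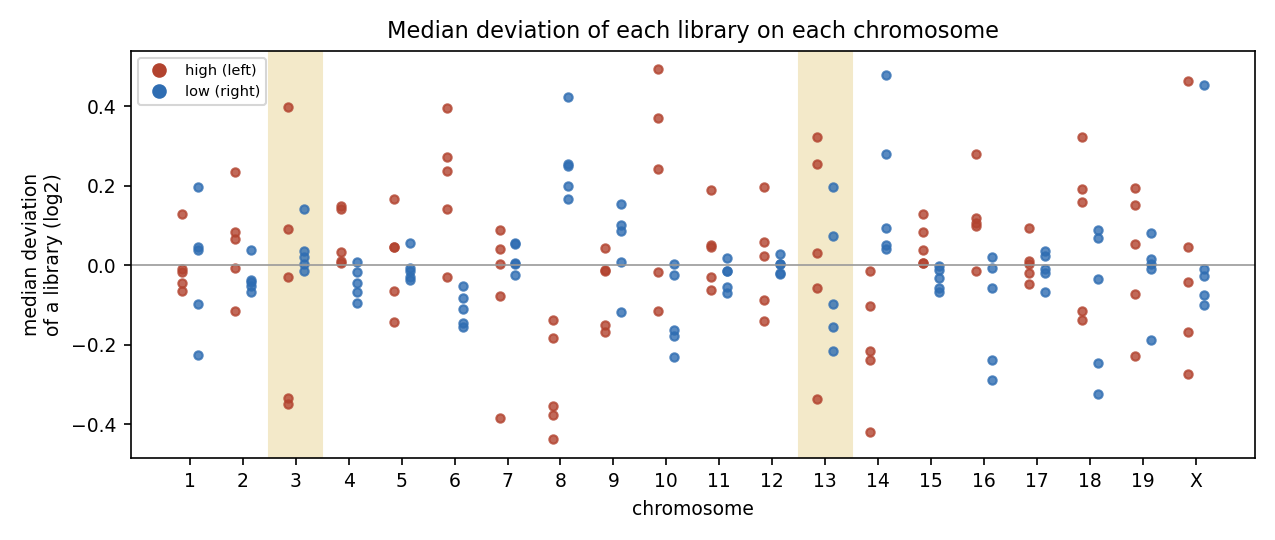
Median deviation (log2) of each library on each of 20 chromosomes, with high clones on the left in red and low clones on the right in blue, and chromosomes 3 and 13 shaded. Chromosome 3 spreads over 0.75 and chromosome 13 over 0.66, and 2 other chromosomes spread farther than chromosome 3.

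On both chromosomes the deviations of the high and low clones overlapped. The high clones averaged -0.04 ± 0.31 and the low clones 0.04 ± 0.06 on chromosome 3 (SD, n = 5 each). The high clones averaged 0.04 ± 0.26 and the low clones -0.04 ± 0.17 on chromosome 13 (SD, n = 5 each). The differences, -0.08 and 0.08, are smaller than the SD of the high clones. They come with no test, because the chromosomes were chosen by these same values, and the second turned to -0.02 when high 1, high 4, high 5 and low 1 were left out.

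The shifts past the limit kept their side in every window along the chromosome, although they came close to 0 in some. Chromosome 3 holds members from 5218526 to 159938664 and was cut into 8 windows of 20 Mb. The window medians of high 1 lay between 0.21 and 0.52, those of high 2 between -0.39 and -0.24, and those of high 4 between -0.48 and -0.25. In windows of 10 Mb, 16 of 16 kept the side of the shift in each of these clones, although 1 window of high 2 came as close to 0 as -0.05 and 1 of high 4 as close as -0.06. The running median shows high 2 near 0 for a stretch of neighbouring genes past the middle of chromosome 3 and again at its end.

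Chromosome 13, with members from 3538063 to 119790889, gave 6 windows of 20 Mb. Their medians lay between -0.38 and -0.23 in high 1, between 0.20 and 0.34 in high 4, between 0.17 and 0.46 in high 5 and between -0.36 and -0.17 in low 1. All 12 windows of 10 Mb lay on the side of the shift in each of these 4 clones, but low 1 was at -0.0044 over the 22 genes from 20 to 30 Mb, so its shift was not seen in that stretch. High 4 and high 5 were also lower there, at 0.11 and 0.09. Among clones under the limit, low 5 was above 0 in 12 of 12 windows, and low 3 and low 4 were below 0 in 12 of 12 each.

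Low 3 had the clearest change of level part of the way along chromosome 3. The single division that lowered the summed absolute deviation most fell between Trim46 (chr3:89234177-89246309) and Krtcap2 (chr3:89245966-89249906), neighbours whose annotated spans overlap. The 187 genes before it had a median of -0.03 in low 3 and the 280 genes after it a median of 0.26. Above 0 in low 3 were 44.9% of the genes before and 86.1% of those after. This division lowered the sum by 10.5%, the 3rd highest among 200 pairs of library and chromosome. Its place is approximate, because 50 of 448 possible divisions, from 89.2 to 94.5 Mb, reached 90% of that drop.

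The segment of low 3 is visible window by window. From the centromere on, the 20 Mb medians were -0.06, -0.04, 0.01, -0.06, 0.14, 0.28, 0.39 and 0.29. A smaller step of the opposite sign stood in high 3, which was at 0.08 over the 200 genes up to Pmvk and at -0.15 over the 267 genes from Adar (chr3:89715022-89753446) on, with a drop of 4.03%. That division is looser still, with 45 places between 79.1 and 102.5 Mb at 90% of its drop or more. The best divisions of all other clones on either chromosome lowered the sum by 1.94% or less. On chromosome 3, those of high 4 (88.6 Mb, -0.27 before and -0.39 after) and high 5 (89.2 Mb, 0.16 and 0.04) fell near those of low 3 and high 3. All clones are measured against the same median of each gene, so these places are not independent.

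Genes of chromosome 3 outside the set gave a mixed picture of the segment. Across the low 3 division, 64 such genes before it (non-coding, or coding at 1 to 8 CPM) had a median of 0.02 and 86 after it 0.04, so the step of low 3 was not seen in them. Across the high 3 division they had medians of 0.03 and -0.15, close to the step of the set. For the whole-chromosome shifts, the coding genes at 1 to 8 CPM had medians of 0.64 in high 1, -0.24 in high 2 and -0.45 in high 4 on chromosome 3. On chromosome 13 they had -0.22 in high 1, 0.21 in high 4, 0.07 in high 5 and -0.05 in low 1, so the values of high 5 and low 1 were closer to 0 there than among the 332 genes. The 22 non-coding genes of chromosome 13 had -0.16 in high 1, 0.04 in high 4, -0.12 in high 5 and -0.04 in low 1, so high 5 had the other sign, while the 62 of chromosome 3 had 0.52 in high 1, -0.35 in high 2 and -0.20 in high 4. These small sets also deviated in clones that the larger sets did not mark, at 0.31 in low 1 on chromosome 3 and 0.31 in low 2 on chromosome 13 for the coding genes at 1 to 8 CPM, and -0.44 in high 2 on chromosome 13 for the non-coding genes.

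**Figure D3:**
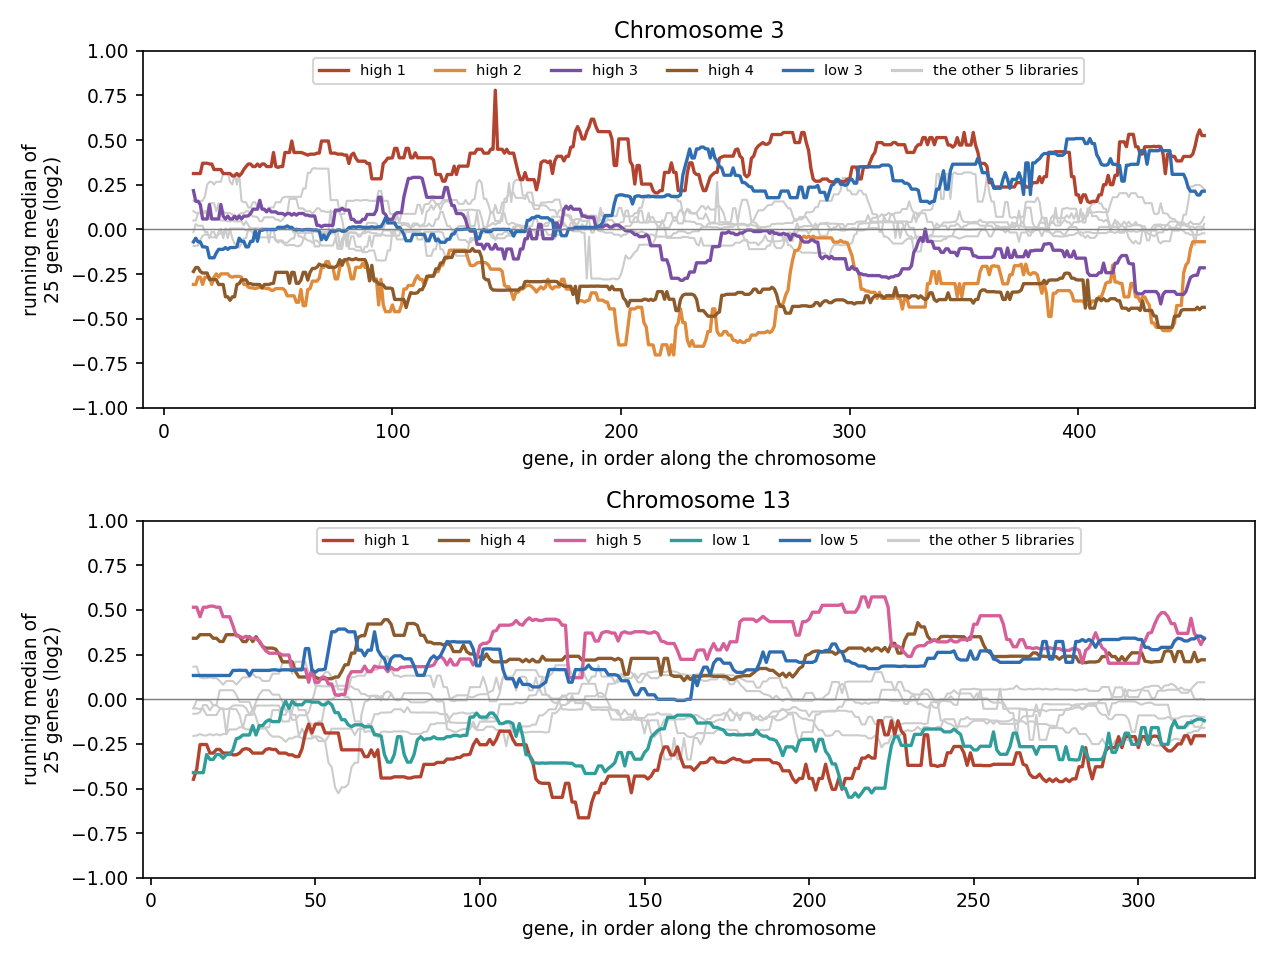
Running median of 25 genes (log2 deviation) along chromosome 3 (top) and chromosome 13 (bottom), with genes in chromosome order, named clones in colour and the others in grey. High 1, high 2 and high 4 stay on 1 side of 0 along chromosome 3, while low 3 has a median of -0.03 before its division and 0.26 after it.

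How closely a gene followed its chromosome was measured by Pearson's r, over the 10 libraries, between its log2 level and the median deviation of the other genes of the chromosome. The values share the same 10 libraries and are a description. The 467 genes of chromosome 3 had a median r of 0.63, with 302 (64.7%) at 0.5 or more and 37 (7.92%) below 0. Genes of other chromosomes set against the same course had 5.46% at 0.5 or more and 56.8% below 0. On chromosome 13 the median r was 0.66, with 221 of 332 genes (66.6%) at 0.5 or more and 33 (9.94%) below 0, against 19.2% and 42.5% for genes of other chromosomes. When the genes were ranked by CPM and split into 4 equal sets, the lowest set had a median r of 0.55 on chromosome 3 and 0.59 on chromosome 13, and the highest set 0.69 and 0.68.

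Groups of genes for routine cell work had shares of followers near or above those of their chromosomes, 64.7% and 66.6%. The 10 proteasome and ubiquitin genes of chromosome 3 had a median r of 0.75 and 8 of them reached 0.5. The 12 genes of translation and of protein entry to the endoplasmic reticulum on that chromosome had a median of 0.67 with 9 at 0.5 or more, and the 6 on chromosome 13 had 0.73 with all 6. Cell division and replication genes had a median of 0.75 with 14 of 15 on chromosome 13, and 0.55 with 5 of 9 on chromosome 3. Mitochondrial proteins encoded in the nucleus had a median of 0.65 with 15 of 20 on chromosome 3, and 0.75 with 10 of 16 on chromosome 13. The groups are small. By share, the cell division genes of chromosome 3 and the mitochondrial genes of chromosome 13 lay below their chromosome. The median r of those mitochondrial genes was above the 0.66 of chromosome 13, so their place depends on the measure. The followers described next were chosen after their values were seen.

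Ankrd13c, introduced above, had the highest r on chromosome 3, 0.98. It stood at 113, 43.8, 65.2, 42.3 and 81.5 CPM in high 1 to 5 and 72.6, 69.0, 82.2, 63.2 and 62.8 CPM in low 1 to 5. High 1 was the highest of the 10 and high 2 and high 4 the lowest, and the groups overlap. Dbt, the E2 subunit of the mitochondrial complex that breaks down branched-chain keto acids, came next with r = 0.97. It stood at 53.2, 21.2, 28.2, 18.8 and 41.2 CPM in high 1 to 5 and 30.2, 29.3, 35.5, 33.5 and 30.3 CPM in low 1 to 5, again with high 1 on top and high 2 and high 4 at the bottom.

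Ssr2, a subunit of the complex at the channel where new proteins enter the endoplasmic reticulum, had r = 0.90. It stood at 437, 197, 354, 225 and 279 CPM in high 1 to 5 and 310.3, 276, 346, 324 and 329 CPM in low 1 to 5. High 1 was again the highest and high 2 and high 4 the lowest. Its partner subunit Ssr3 behaved alike, at 526 CPM in high 1 and 221 CPM in high 4 (r = 0.92). Psmd4, the ubiquitin receptor of the proteasome, stood at 510.1, 209, 308, 313 and 323 CPM in high 1 to 5 and 336, 305, 434, 384 and 376 CPM in low 1 to 5. High 2 was its lowest value, and high 4 lay among the other clones, at a deviation of -0.07.

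Among regulators of growth on chromosome 3, 9 of 12 had r of 0.5 or more, with a median r of 0.71. On chromosome 13 only 6 of 17 did, 3 were below 0 and the median r was 0.39, so the list followed on chromosome 3 alone. Pik3ca, the catalytic subunit of a phosphoinositide 3-kinase, stood at 93.8, 42.1, 52.9, 38.3 and 57.2 CPM in high 1 to 5 and 61.8, 54.6, 53.8, 46.7 and 50.7 CPM in low 1 to 5. Wwtr1, the Hippo pathway co-activator also called TAZ, stood at 283, 120.4, 176, 113 and 202 CPM in high 1 to 5 and 190.1, 185, 185, 126 and 168 CPM in low 1 to 5. In both genes high 1 was the highest clone and high 4 the lowest, and high 2 was below the low clones in each. Anp32e, a chaperone that removes the histone variant H2A.Z, was lowest in high 4 at 132 CPM and highest in high 1 at 395 CPM (r = 0.93).

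Cell division genes of chromosome 3 as a group did not share the rise of high 1. Their median deviation there was -0.03, against 0.40 for the chromosome, while in high 2 and high 4 it was -0.45 and -0.38. The members disagreed: Smc4, a condensin subunit, deviated by 0.65 in high 1, the cyclin gene Ccna2 by -0.07, and H2afz, which encodes the variant H2A.Z, by -0.06. On chromosome 13 the 15 genes of this group moved with the chromosome, at -0.18 in high 1, 0.30 in high 4, 0.32 in high 5 and -0.07 in low 1.

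On chromosome 13 the closest follower was Trappc13 (r = 0.97), which stood at 46.6, 61.9, 79.5, 88.2 and 92.6 CPM in high 1 to 5 and 56.6, 75.9, 59.1, 67.2 and 87.4 CPM in low 1 to 5. High 5, high 4 and low 5 were its top clones and high 1 its lowest. Gdi2, which recycles Rab GTPases from membranes, stood at 252, 381, 498, 536 and 520.0 CPM in high 1 to 5 and 339.6, 441, 356, 351 and 565 CPM in low 1 to 5 (r = 0.94). Sdha, the flavoprotein of succinate dehydrogenase in the mitochondrial inner membrane, stood at 163, 269.9, 318, 341 and 338 CPM in high 1 to 5 and 203, 304, 249, 259.8 and 383 CPM in low 1 to 5 (r = 0.92). For both, low 5 was the highest clone and high 1 the lowest, and the groups overlap.

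Depdc1b, a regulator of adhesion during entry to mitosis, moved further than the chromosome did. It stood at 3.15, 9.04, 8.21, 11.8 and 16.2 CPM in high 1 to 5 and 5.37, 7.62, 6.23, 6.94 and 12.5 CPM in low 1 to 5, a deviation of -1.30 in high 1 and 1.02 in high 5 (r = 0.95). Msh3, a mismatch repair protein, kept closer to the chromosome, at -0.45 in high 1 and 0.50 in high 5 (r = 0.92). Hmgcs1, an enzyme of sterol synthesis, had an r of 0.66 and went further down than the chromosome in high 1, at -1.15.

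**Figure D4:**
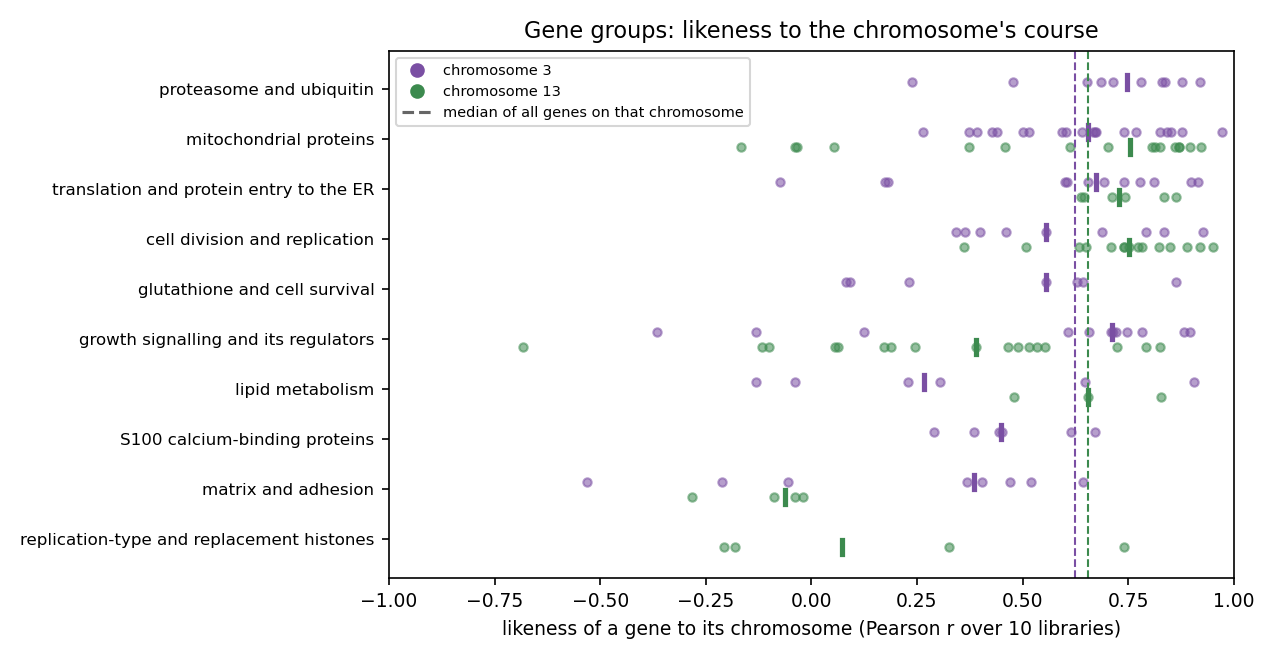
Pearson's r of each gene with the course of its chromosome over 10 libraries, by gene group, for groups with at least 3 members, on chromosome 3 (purple) and chromosome 13 (green). Thick ticks are group medians and dashed lines the medians of all genes, 0.63 and 0.66. The 4 matrix genes of chromosome 13 all lie below 0.

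Few matrix and adhesion genes followed their chromosome. Of those listed, 2 of 8 on chromosome 3 reached r = 0.5 and 3 were below 0, and on chromosome 13 none of 4 reached it and all 4 (Ogn, Tgfbi, Ctsl and Vcan) were below 0. The S100 calcium-binding proteins of chromosome 3 reached it in 2 of 6 cases, its lipid genes in 2 of 6, and the histone genes of chromosome 13 in 1 of 4. Genes with r below 0 had a median SD over libraries of 0.54 on chromosome 3 and 0.59 on chromosome 13, against 0.37 on both for genes with r of 0.5 or more.

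Running against the shift by at least 0.2 were 32 chromosome 3 genes in high 1, 43 in high 2 and 27 in high 4. That is 6.85%, 9.21% and 5.78% of the 467, while on other chromosomes 38.2%, 28.1% and 28.2% of genes lay that far to the same side. On chromosome 13 they numbered 31 in high 1, 16 in high 4, 42 in high 5 and 26 in low 1. Most genes did so in none of the shifted clones, 384 of 467 on chromosome 3 and 261 of 332 on chromosome 13. In all 3 shifted clones it was 2 genes on chromosome 3, Dclk1 and Pcdh18, and in all 4 it was 0 genes on chromosome 13.

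Dclk1, a kinase that binds microtubules, stood at 1.13, 35.0, 2.33, 20.1 and 1.45 CPM in high 1 to 5 and 10.9, 23.1, 25.6, 7.48 and 23.2 CPM in low 1 to 5. It was lowest in high 1, where the chromosome was up, and highest in high 2, where the chromosome was down. Its deviations there were -3.61 and 1.23. Pcdh18, a cell adhesion molecule of the protocadherin family, had deviations of -0.78 in high 1, 0.50 in high 2 and 0.53 in high 4. Arsj (r = -0.66) had 0 counts in high 1, and 27.0, 10.8, 10.6 and 11.5 CPM in high 2 to 5. The low clones had between 3.30 CPM (low 1) and 32.1 CPM (low 3) of it.

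Sfrp2, a secreted modulator of Wnt signalling, also ran opposite to chromosome 3 (r = -0.53). It stood at 77.7, 777, 213, 434 and 11.05 CPM in high 1 to 5 and 7.84, 4.06, 1.67, 4.79 and 133 CPM in low 1 to 5. High 2 and high 4, the clones with low chromosome 3, were the top of the 10, and the groups overlap because low 5 lies above high 1 and high 5. Ptx3, a secreted pattern-recognition protein of innate immunity, stood at 7.54, 63.1, 11.3, 35.6 and 4.85 CPM in high 1 to 5 and 5.32, 1.57, 2.84, 7.31 and 1.41 CPM in low 1 to 5. Its top clones were the same pair, and its groups overlap too. Neither passed edgeR's quasi-likelihood test between the groups (Sfrp2 log2 fold change 3.32, SE 1.361, adjusted p = 0.186, Ptx3 log2 fold change 2.72, SE 0.77, adjusted p = 0.0686).

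Among the 6 chromosome 3 genes with the most CPM, Lmna and the S100 genes went their own way. Lmna, which encodes the lamins A and C of the nuclear envelope, stood at 833, 761, 1265, 1239.7 and 1093 CPM in high 1 to 5 and 796, 1019, 1082, 902 and 766 CPM in low 1 to 5. High 3 and high 4 were highest, although the chromosome was down in high 4, and r was -0.15. S100a6, a small calcium-binding protein, stood at 2679, 1139.6, 1776, 2639 and 1505 CPM in high 1 to 5 and 3199.7, 1901, 2954, 3257 and 3009.8 CPM in low 1 to 5. High 2 was its lowest clone, and high 4 was close to high 1. S100a10, S100a11 and S100a6 deviated by -1.71, -1.50 and -1.22 in high 2, well beyond the chromosome, and by 0.35, 0.21 and -0.01 in high 4, which did not share its shift.

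On chromosome 13 the lowest r belonged to neighbours. Nfil3 had r = -0.68 and Auh, a mitochondrial hydratase of leucine breakdown that also binds AU-rich RNA, had r = -0.66. The stretch chr13:52835119-52981073 holds both. Auh stood at 71.5, 31.6, 43.7, 28.8 and 25.3 CPM in high 1 to 5 and 45.4, 37.6, 34.4, 23.6 and 31.5 CPM in low 1 to 5, and high 1, where the chromosome was down, was its highest clone. Nfil3 stood at 46.9, 40.6, 31.3, 37.1 and 22.6 CPM in high 1 to 5 and 31.5, 28.6, 48.7, 44.1 and 16.8 CPM in low 1 to 5. Low 3 and high 1, with a low chromosome 13, were its top clones, and low 5 and high 5, with a high one, its lowest.

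Of the genes with r below 0, 33 of 37 on chromosome 3 and 23 of 33 on chromosome 13 had no such neighbour. Such genes were 7.92% and 9.94% of their chromosomes, and how many pairs those shares alone would give was not tested. Runs of adjacent genes with r below 0 were never longer than 2, with 2 such pairs on chromosome 3 (Fabp5 with Fabp4 and Adgrl2 with Ifi44) and 5 on chromosome 13. The pairs on chromosome 13 were Hist1h1c with Carmil1, Serpinb1a with Serpinb6b, Gmpr with Atxn1, Auh with Nfil3 and Cox7c with Vcan. Gmpr and Atxn1 overlap on opposite strands, and whether the counting used strand is not stated in the sources used here.

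Matrix genes of chromosome 13 differed between clones far more than the chromosome did. Vcan, the large proteoglycan versican, stood at 6.75, 99.7, 10.6, 56.6 and 1.42 CPM in high 1 to 5 and 11.1, 12.5, 16.3, 6.73 and 12.3 CPM in low 1 to 5. High 2 and high 4 were its top clones and high 5 its lowest, although high 5 had the highest chromosome 13. Tgfbi, a secreted adhesion protein induced by TGF-beta, stood at 5.62, 59.4, 112, 28.1 and 4.15 CPM in high 1 to 5 and 41.8, 24.1, 47.2, 5.67 and 38.4 CPM in low 1 to 5. High 1, high 5 and low 4 were its lowest clones. Neither gene passed the test between the groups (edgeR quasi-likelihood, Vcan log2 fold change 1.56, SE 0.87, adjusted p = 0.333, Tgfbi log2 fold change 0.39, SE 0.83, adjusted p = 0.841).

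The linker histone gene Hist1h1c and the H2B gene Hist1h2bc had deviations of 1.10 and 1.09 in high 1, where chromosome 13 was down. In high 5, where it was up, they had -0.92 and -1.21. Most histone mRNAs of this cluster lack a poly(A) tail, and near-identical copies share reads, so their levels are uncertain. Other genes overshot their chromosome: Iars, the isoleucine tRNA synthetase, was at 29.6 CPM in high 1 and between 126 and 271 CPM in high 2 to 5, and between 90.7 and 197 CPM in the low clones. S1pr3, a receptor for sphingosine-1-phosphate, was at 0.345 CPM in high 1 and 0.346 CPM in high 5, clones with opposite chromosome 13 shifts. It was at 12.2 to 63.0 CPM in high 2 to 4 and at 7.61 CPM or more in the low clones.

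**Figure D5:**
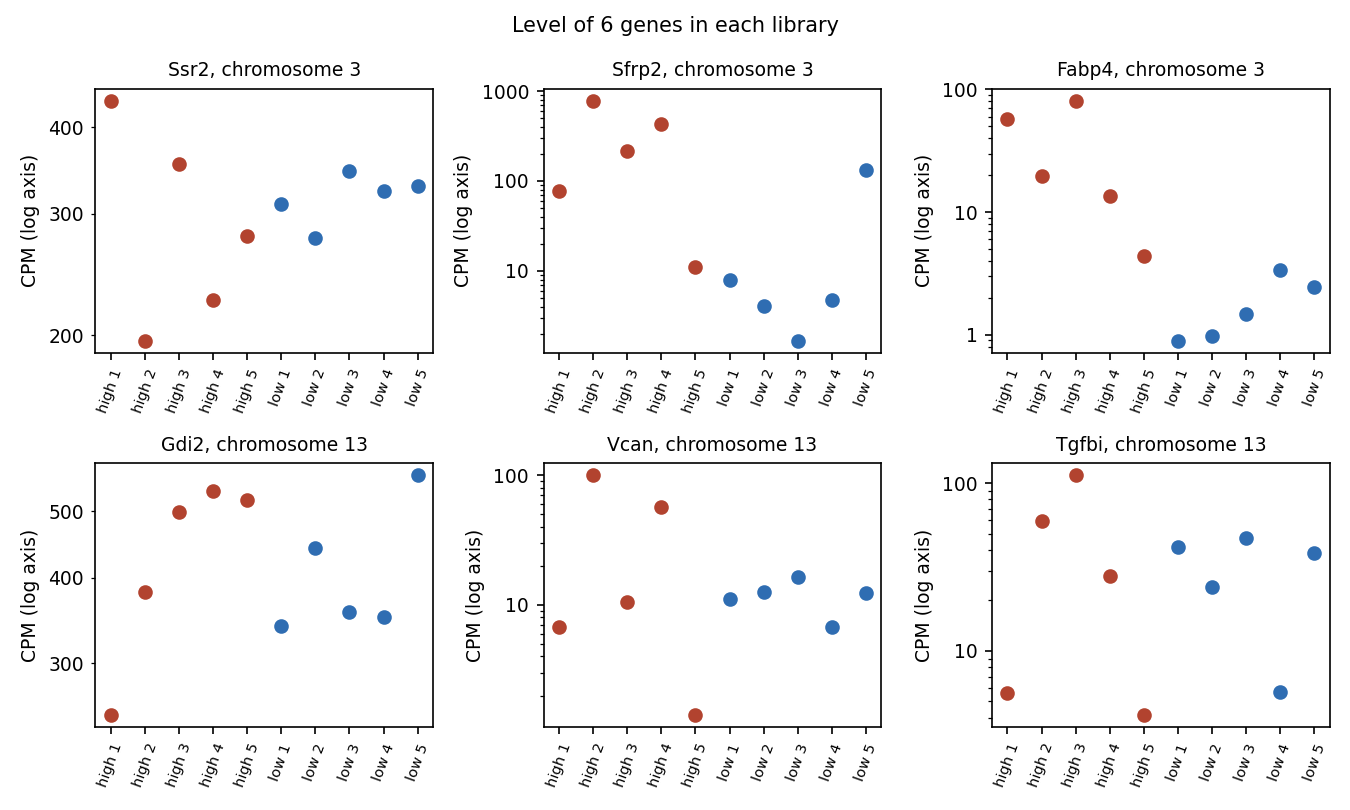
CPM (log axes) of 6 genes in each library, high 1 to 5 in red and low 1 to 5 in blue. The followers Ssr2 and Gdi2 stay within a narrow range that repeats the course of chromosomes 3 and 13, while Sfrp2, Fabp4, Vcan and Tgfbi range far more widely.

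Some genes on these chromosomes did differ with heteroplasmy. Over all 12964 genes tested with edgeR's quasi-likelihood test, 4.86% passed an adjusted p of 0.05, 1.99% rising and 2.87% falling in the high clones. On chromosome 3, 7 of 467 genes rose and 6 fell, 2.78% in all, and on chromosome 13, 7 of 332 rose and 1 fell, 2.41%. At an unadjusted p under 0.05 there were 62 (13.3%) and 46 (13.9%), against 21.6% over all genes tested. Values of the groups did not overlap for 15 and 10 genes, 3.21% and 3.01%, against 7.17% over all genes tested. The median log2 fold change was -0.05 on chromosome 3 and 0.06 on chromosome 13, beside 0.02 over all genes tested. Of the genes that passed, 12 of 13 and 6 of 8 had r under 0.5, as did 153 of 454 and 105 of 324 of those that did not pass. The deviations of both chromosomes overlapped between the groups, and r and the test use the same 10 libraries. These shares are therefore no separate result, and why they differ was not tested.

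These counts, their split by direction and their standing beside all genes turn on single clones and on the fit. Without high 1, chromosome 3 had 28 calls (6.00%), 22 of them falls, against 6.25% over all genes in that fit. With an offset per chromosome it had 9 (1.93%), against 1.19%. On chromosome 13, 6 rose and 7 fell without high 4 (3.92%, against 6.1% over all genes in that fit). Without its shifted clones 8 rose and 6 fell (4.22%, against 2.71%), and with limma-voom 5 rose and 4 fell (2.71%, against 5.3%). Chromosome 3 had 8 calls without low 2 or low 3 (1.71%, against 1.85% and 1.93%). On chromosome 13 the count lay between 1 (0.301%) and 13 (3.92%) depending on the clone left out, below the share over all genes in each of these fits. The genes given next with no remark passed in each of the 10 fits that left out 1 clone.

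Rises on chromosome 3 included a signal transducer, a transcription factor and detoxifying enzymes. Smad9, which carries bone morphogenetic protein signals to the nucleus, stood at 5.47, 17.0, 52.8, 14.2 and 18.0 CPM in high 1 to 5 and 1.51, 3.24, 1.95, 1.68 and 2.22 CPM in low 1 to 5. The groups do not overlap, and the lowest high clone was high 1 (edgeR, log2 fold change 3.32, SE 0.53, adjusted p = 0.0120). Gstm2, a glutathione S-transferase, stood at 275, 94.3, 153, 87.2 and 74.2 CPM in high 1 to 5 and 25.6, 42.7, 28.0, 23.5 and 24.4 CPM in low 1 to 5, also without overlap (edgeR, log2 fold change 2.24, SE 0.37, adjusted p = 0.0135). Its neighbour Gstm1 rose too (edgeR, log2 fold change 1.32, SE 0.29, adjusted p = 0.0285) but passed in 5 of the 10 fits, and Gstm5 did not pass (edgeR, log2 fold change 0.47, SE 0.32, adjusted p = 0.439). Near-identical copies in this family share reads, so their split is uncertain.

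Foxo1, a transcription factor restrained by insulin signalling, stood at 57.3, 40.2, 50.1, 29.8 and 35.7 CPM in high 1 to 5 and 23.2, 17.7, 21.8, 18.9 and 17.4 CPM in low 1 to 5. The lowest high clone was above the highest low clone (edgeR, log2 fold change 1.10, SE 0.20, adjusted p = 0.0165). Lrrcc1, a centrosome protein, rose as well (edgeR, log2 fold change 1.33, SE 0.23, adjusted p = 0.0135), with high clones from 20.9 to 50.5 CPM and low clones from 12.5 to 17.6 CPM. Fabp4, the fatty acid binding protein of fat cells, stood at 57.3, 19.9, 80.5, 13.5 and 4.36 CPM in high 1 to 5 and 0.896, 0.973, 1.49, 3.36 and 2.44 CPM in low 1 to 5. All high clones were above all low clones, by little in high 5 (edgeR, log2 fold change 4.25, SE 0.78, adjusted p = 0.0180). Its neighbour Fabp5 did not pass (edgeR, log2 fold change 1.33, SE 0.69, adjusted p = 0.294), and in high 2 Fabp5 had 7.89 CPM where Fabp4 was well above the low clones. Fabp4 missed the threshold with limma-voom (log2 fold change 3.67, adjusted p = 0.068) and with the replicate number as a block (edgeR, 3.79, adjusted p = 0.0737). Tsc22d2 was the other gene that rose (edgeR, log2 fold change 0.62, SE 0.15, adjusted p = 0.0378), without overlap, and passed in 2 of the 10 fits.

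Falls on chromosome 3 were led by Sprr1a, a cornified envelope protein of skin. It stood at 0.838, 0.0853, 0, 2.69 and 0.173 CPM in high 1 to 5 and 39.5, 68.0, 87.0, 63.5 and 54.2 CPM in low 1 to 5. The gap between the groups was wide (edgeR, log2 fold change -6.38, SE 0.92, adjusted p = 0.00806). Npr1, the receptor of atrial natriuretic peptide, stood at 2.76, 1.41, 0.993, 4.22 and 2.46 CPM in high 1 to 5 and 35.5, 8.92, 9.30, 12.3 and 8.17 CPM in low 1 to 5, without overlap (edgeR, log2 fold change -2.67, SE 0.53, adjusted p = 0.0224), and missed the threshold when each chromosome had an offset (log2 fold change -2.55, adjusted p = 0.0544). Nes, an intermediate filament protein known from neural progenitors, stood at 126, 99.97, 73.1, 95.3 and 208 CPM in high 1 to 5 and 278, 303, 279, 322 and 302 CPM in low 1 to 5 (edgeR, log2 fold change -1.32, SE 0.24, adjusted p = 0.0159). Of the other neural markers listed, Tubb3 stood at 3.53 to 10.1 CPM in high clones and 12.6 to 31.5 CPM in low clones, and Sox2 was at 0 in every high clone and at 0.462 CPM or less in low clones. Their part in the fall of Nes was not tested. Without high 1, high 2 and high 4, the falls of Nes and Npr1 missed the threshold at log2 fold changes of -1.13 and -3.14 (edgeR, adjusted p = 0.107 and 0.0661), in a fit with 7 libraries.

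Ccn1, a matrix protein that is a common target of YAP and TAZ, stood at 745, 378, 234, 517 and 372 CPM in high 1 to 5 and 769, 1088, 1456, 1339 and 842 CPM in low 1 to 5. The groups do not overlap, but high 1 at 745 CPM came close to low 1 at 769 CPM (edgeR, log2 fold change -1.30, SE 0.30, adjusted p = 0.0360), and it passed in 2 of the 10 fits. Skil, a repressor of SMAD signalling, fell (edgeR, log2 fold change -0.89, SE 0.21, adjusted p = 0.0368) and held in 2, and Sgms2, a sphingomyelin synthase of the cell surface, fell (edgeR, log2 fold change -1.26, SE 0.29, adjusted p = 0.0357) and held in 3. Among the 8 matrix and adhesion genes of the chromosome, Ccn1 was the 1 that passed.

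On chromosome 13 the firmest change was a fall of Gfod1, named for a domain shared with glucose-fructose oxidoreductases. It stood at 3.01, 4.01, 3.82, 6.79 and 6.72 CPM in high 1 to 5 and 19.98, 27.4, 29.1, 50.9 and 27.7 CPM in low 1 to 5. All high clones were far under all low clones (edgeR, log2 fold change -2.69, SE 0.31, adjusted p = 0.00232). Rises were seen for Glrx, a glutaredoxin, with high clones from 13.4 to 24.7 CPM and low clones from 5.52 to 11.02 CPM (edgeR, log2 fold change 1.22, SE 0.26, adjusted p = 0.0274), and for Bphl, a mitochondrial hydrolase (edgeR, log2 fold change 0.91, SE 0.20, adjusted p = 0.0306). They passed in 5 and 4 of the 10 fits.

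Akr1c14, an aldo-keto reductase (edgeR, log2 fold change 2.62, SE 0.64, adjusted p = 0.0428), Mylip, a ubiquitin ligase that targets the LDL receptor (edgeR, log2 fold change 1.52, SE 0.36, adjusted p = 0.0357), and the potassium-chloride cotransporter gene Slc12a7 (edgeR, log2 fold change 0.91, SE 0.21, adjusted p = 0.0346) rose and held in 2 fits each. The groups of Slc12a7 overlap, with high 1 at 46.5 CPM below low 2 at 51.6 CPM. Arhgef28 and Cdyl were the other genes that rose, both had groups that overlap, and both passed in 2 of the 10 fits. The listed groups with no called gene on either chromosome were cell division, translation, proteasome and histone genes. S100 and mitochondrial genes on chromosome 3 had none, nor did matrix, lipid, glutathione and growth signalling genes on chromosome 13. The proteasome and glutathione groups of chromosome 13 and the histones of chromosome 3 hold 1 gene each. The largest group with no call holds 20 genes, and 4.86% of all genes tested were called. Having no call therefore says little about any of these groups. Median log2 fold changes of the groups with no call, high over low, included -0.48 for 6 S100 genes, -0.31 for 12 translation genes and -0.19 for 10 proteasome genes on chromosome 3, and 0.06 for 15 cell division genes on chromosome 13, beside 0.02 over all genes tested.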

How the data were processed

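Poly(A) RNA of 10 clones (5 high, 5 low heteroplasmy) was read as 50 bp pairs, per the labels, from libraries of a directional kit. STAR 2.7.8a, DESeq2 1.36.0 and R 4.2.1 appear in the submitters' processing notes beside GRCm38. What counted the reads, and whether strand was used, is not stated in the sources used here. The authors deposited raw read counts per Ensembl gene and a normalized table, a signal that equals the deposited count divided by 1 size factor per library. The raw counts were used. Genes were placed with GENCODE M21; 195 rows had no entry and held at most 0.0701% of a library's counts.

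CPM are scaled by TMM (edgeR 4.0.16, R 4.3.3) except for the 8 CPM minimum, which uses raw totals; deviations use log2 CPM with a prior count of 2. A division splits a chromosome's genes once, with at least 10 on a side. High against low was tested over all genes by robust quasi-likelihood F-tests (default filter, Benjamini-Hochberg, 0.05). A permutation test planned on the clones' chromosome deviations is not given, because the same values chose the chromosomes. Clones are named as biological replicates but nothing says how cultures were kept apart, so p-values measure the spread between these libraries. Alternatives used RLE and upper-quartile scaling, other filters, DESeq2 1.42.0, limma-voom (limma 3.58.1), an offset per chromosome, the replicate number as a block, each library left out, and other minimums, prior counts and references. The code was tested on simulated data.

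The genes, gene lists and tests were chosen with earlier results of these data known, and the fits without shifted clones, the divisions of clones under the limit and those with 20 genes a side were added after seeing the data. Genes named are those farthest against (8) or beyond (4) each shift, the 6 with the highest CPM, the 5 smallest p in each direction, called list members, chromosome ends, divisions and neighbours of the minimum; others are said to have been chosen after their values were seen. Besides followers, that holds for genes with the lowest r, gene pairs, and genes of role lists (S100a10, Fabp5, Gstm5, Hmgcs1).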

Additional observations from a re-analysis of the deposited data

Results flagged for a closer look

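In 11 of 204 sets of 5 values, 1 clone stood far from the other 4, by a test for single outlying values. A set holds the 5 high or the 5 low clones, for a gene named by the rule or for the median deviation of chromosome 3 or 13. All 11 flags fell on genes. That test flags about 1 set in 20 by chance when sets are taken without regard to their values. Many genes here were named because they lay far out in 1 clone, such as Arsj in high 1, Pkia in high 2 and Pear1 in high 4. That rate therefore does not apply to these sets. The high clones had the flag in 7 genes. Arsj was at a log2 CPM of -3.48 in high 1, which is the floor that the prior count gives to 0 counts. The small GTPase regulator Elmo1 was at 1.08 and the scaffold protein Nedd9 at 0.51 in high 3, both low for the group. Low values of high 2 were 7.26 for the RNA-binding protein gene Hnrnpa0 and 0.31 for Pkia, an inhibitor of protein kinase A. Pear1, a platelet receptor, was low at 1.41 in high 4, where its chromosome 3 was also down. Ubqln4, a ubiquitin shuttle, was high at 7.15 in high 5. The low clones had the flag in 4 genes: Npr1 was high at 5.15 in low 1, Polr3g, a subunit of RNA polymerase III, high at 4.01 in low 5, S100a6 low at 10.89 in low 2, and Them4, a thioesterase, high at 3.46 in low 3. Them4 lies in the raised segment of low 3, and Polr3g on the chromosome 13 of low 5, which was up. Their causes were not tested.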

How the results depend on the processing

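The 7 clone deviations past the limit kept their sign in all 16 settings tried for each. High 1 on chromosome 3, for example, lay between 0.34 and 0.48. Each also moved by less than the SD of the clones of its group, but that SD includes the shifted clone itself and is a wide measure. Low 1 on chromosome 13 fell under the limit of 0.2 in 3 of the settings. The differences between the groups kept their sign except for chromosome 13 without high 1, high 4, high 5 and low 1, at -0.023. With each clone left out they ran from -0.17 to -0.02 on chromosome 3 and from 0.02 to 0.20 on chromosome 13. Both divisions on chromosome 3 were the same with at least 20 genes a side. The cause of the changes below was not tested.

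The count of 630 genes called was 1475 with DESeq2, 154 with an offset per chromosome and 369 without the clones shifted on chromosome 13, and 232 to 821 with each clone left out. For chromosome 3 (13 calls) DESeq2 gave 27 (5.79%, against 11.4% over all genes). The fits without 1 clone gave it 8 to 28 (1.71% to 6%), while over all genes they gave 1.76% to 6.25%. For chromosome 13 (8 calls) DESeq2 gave 25 (7.53%, against 11.4%), the offset 3 (0.904%, against 1.19%) and the fit without its shifted clones 14 (4.22%, against 2.71%). The fits without 1 clone gave it 1 to 13: 13 without high 1 or high 4, 4 without high 5, 3 without low 2, 2 without low 1, low 3 or low 5, and 1 without high 2, high 3 or low 4. The same replicate number correlated between groups by -0.05 to 0.46 and its best partner was its own number for 2 of 5. So few values cannot settle whether numbers pair clones, and nothing in the labels says that they do. A replicate block gave 577 calls over all genes (4.45%), 9 on chromosome 3 (1.93%) and 9 on chromosome 13 (2.71%). It lost Arhgef28, Ccn1, Fabp4, Sgms2, Skil and Tsc22d2. Of the 21 genes called on these chromosomes, 10 lost the call under the offset (Akr1c14, Arhgef28, Bphl, Ccn1, Cdyl, Glrx, Mylip, Npr1, Skil and Tsc22d2), with log2 fold changes at 0.887 to 1.14 times those reported, and 11 lost it in the 7 libraries left without the clones shifted on chromosome 3.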

Other observations

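The serpin cluster of chromosome 13 holds protease inhibitors of the Serpinb family, whose copies are alike enough that reads may be shared between them. Serpinb6b stood at 13.01, 0.810, 5.12, 12.3 and 0.796 CPM in high 1 to 5 and 16.7, 36.3, 90.8, 39.8 and 57.8 CPM in low 1 to 5, and Serpinb6a at 136, 175, 304, 595 and 329.8 CPM in high 1 to 5 and 229, 434, 427, 320.4 and 501 CPM in low 1 to 5. High 2 and high 5 were the lowest clones for Serpinb6b, and high 1 was the lowest for Serpinb6a, which followed its chromosome (r = 0.69) where Serpinb6b did not (r = -0.28). Neither passed the test between the groups (edgeR, Serpinb6b log2 fold change -2.92, SE 0.80, adjusted p = 0.0623, Serpinb6a log2 fold change -0.33, SE 0.36, adjusted p = 0.651).

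On chromosome 13, F2rl1, a cell-surface receptor switched on by protease cleavage, had 0.341 CPM in high 2 and 43.1 CPM in high 5, and 40.2 CPM or more in every low clone. Its groups overlap through high 5 and low 1 (edgeR, log2 fold change -2.24, SE 0.81, adjusted p = 0.137). Plk2, a stress-responsive kinase, stood at 66.1, 114, 71.7, 179.7 and 188 CPM in high 1 to 5 and 184, 275, 251, 600.1 and 339 CPM in low 1 to 5 and just missed the threshold (edgeR, log2 fold change -1.43, SE 0.37, adjusted p = 0.0507). On chromosome 3 Ifi44, an interferon-induced gene, was at 247 CPM in low 4 and 0.0692 CPM in high 5.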
